A study of Mus musculus with 5 samples.

Results

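The hippocampal transcripts described here are those of 9 genes whose proteins shorten the life of other mRNAs or restrain proliferation. They were chosen by gene symbol for what their proteins do, with earlier results of these data known, and are Zfp36, Zfp36l1, Zfp36l2, Zc3h12a, Btg1, Btg2, Btg3, Tob1 and Tob2, 9 of the 55385 genes listed. The study compared total RNA of hippocampi from untreated male C57/bl6 mice aged 3 months (control, 1 library) with hippocampi of such mice after an intraperitoneal dose of kainic acid (20 mg/kg), which activates glutamate receptors and provokes seizures. These mice were killed 1 h (1 library), 4 h (2 libraries, called library 1 and library 2) or 8 h (1 library) after seizure onset. Seizure time was counted from the first rearing, mice with seizures milder than continuous rearing with falling were left out, and the control is labelled untreated rather than vehicle-injected. The protocol given with every library also names SL327, an inhibitor of the kinase MEK, but no library is labelled with it. Only the 4 h condition has 2 libraries, so that p-values measure only the spread between these 2. Whether each library stands for 1 mouse is not stated, so whether this is a spread between mice is not known.

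The length of an mRNA's poly(A) tail largely sets how long the message survives, and most of these proteins act on this step. Tristetraprolin (Zfp36) and its relatives Zfp36l1 and Zfp36l2 are CCCH zinc finger proteins that bind AU-rich elements in 3′ untranslated regions and recruit the CCR4-NOT deadenylase, while Zc3h12a (Regnase-1) is an endoribonuclease that cuts stem-loops in the mRNAs of inflammatory genes. The BTG and TOB proteins bind the deadenylase subunits Cnot7 and Cnot8 through a shared N-terminal domain. The TOB proteins also bind the cytoplasmic poly(A)-binding protein, and the family is known for its ability to slow cell division. In neurons, Btg2 and Zfp36 are known as immediate early genes, and Btg1 is known for keeping progenitors of the dentate gyrus quiescent.

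The promoters of 5 members are shown first, those that stood highest above the control at 1 h apart from Zfp36l2, which had no entry, because the CRE (bound by CREB) and the CArG box (bound by SRF) are the elements through which many activity-regulated genes are switched on. Windows of 300 bases, from 250 before to 50 after the start site, were taken from RefSeq (GRCm38.p6) for 8 of the 9 genes, and capitals mark the matched motif. The Btg2 window lies at chr1:134079106-134079405 on the minus strand, the Zfp36 window at chr7:28379179-28379478 on the minus strand, the Btg1 window at chr10:96616751-96617050 on the plus strand, the Zc3h12a window at chr4:125127832-125128131 on the minus strand and the Tob1 window at chr11:94211204-94211503 on the plus strand.
Btg2 promoter: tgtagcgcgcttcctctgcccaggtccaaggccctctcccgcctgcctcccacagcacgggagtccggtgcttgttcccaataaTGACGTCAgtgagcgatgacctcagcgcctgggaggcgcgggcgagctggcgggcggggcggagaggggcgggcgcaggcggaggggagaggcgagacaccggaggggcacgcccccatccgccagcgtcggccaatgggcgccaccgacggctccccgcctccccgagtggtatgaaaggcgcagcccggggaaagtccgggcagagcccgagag
Zfp36 promoter: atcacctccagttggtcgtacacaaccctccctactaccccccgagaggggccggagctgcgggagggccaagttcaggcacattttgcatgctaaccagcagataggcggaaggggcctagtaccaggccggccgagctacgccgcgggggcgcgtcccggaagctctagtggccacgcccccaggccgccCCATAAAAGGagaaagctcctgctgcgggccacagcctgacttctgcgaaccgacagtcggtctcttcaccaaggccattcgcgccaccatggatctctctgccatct
Btg1 promoter: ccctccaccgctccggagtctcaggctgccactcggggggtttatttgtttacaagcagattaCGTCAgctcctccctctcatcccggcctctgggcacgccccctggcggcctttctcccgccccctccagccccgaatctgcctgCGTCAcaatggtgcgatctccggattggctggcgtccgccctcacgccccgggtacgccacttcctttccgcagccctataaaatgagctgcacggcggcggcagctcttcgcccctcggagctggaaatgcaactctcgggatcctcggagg
Zc3h12a promoter: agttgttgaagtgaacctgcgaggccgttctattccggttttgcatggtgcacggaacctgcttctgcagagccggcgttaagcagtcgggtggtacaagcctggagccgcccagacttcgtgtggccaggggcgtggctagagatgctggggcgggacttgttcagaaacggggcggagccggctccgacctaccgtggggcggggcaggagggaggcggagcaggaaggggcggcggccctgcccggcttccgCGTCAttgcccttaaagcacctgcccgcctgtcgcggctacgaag
Tob1 promoter: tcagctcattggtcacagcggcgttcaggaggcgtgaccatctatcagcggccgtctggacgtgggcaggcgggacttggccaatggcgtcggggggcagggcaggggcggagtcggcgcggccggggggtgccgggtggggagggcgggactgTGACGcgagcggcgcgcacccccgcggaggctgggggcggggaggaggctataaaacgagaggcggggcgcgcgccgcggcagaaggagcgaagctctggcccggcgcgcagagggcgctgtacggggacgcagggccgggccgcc
The motifs searched, on both strands, were the CRE (TGACGTCA), its core (TGACG), the AP-1 site (TGANTCA), the EGR site (GCGTGGGCG) and the CArG box. The full CRE was found in Btg2 alone, where it began 166 bases before the start site, and 1.80% of all 32544 RefSeq promoters hold one. The CArG box was found in Zfp36 alone, 58 bases before the start site, against 1.64% of all promoters. Cores, of which a full CRE holds 1 on each strand, were also found in Btg1 (187 and 103 bases before the start site), Tob1 (96 bases before it) and Zc3h12a (6 bases after it), and 20.9% of promoters have at least 1. Zfp36l1 held an AP-1 site, read TGATTCA, 129 bases before the start site (7.79% of promoters). No EGR site was found in the 8 genes (0.618% of promoters), and the windows of Btg3 (2 start sites) and Tob2 held none of these motifs. These matches describe the letters of the window and were not tested as binding sites.

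The mRNAs of Zfp36, Zfp36l1 and Zfp36l2 contain the letters of the AU-rich element that this protein family is known to bind. The AU-rich nonamer TTATTTATT occurred once in the 3′ untranslated region of each of Zfp36, Zfp36l1 and Zfp36l2 and in none of the other 6 genes, and it occurred in 7.72% of 20846 genes with an annotated 3′ untranslated region. The 3 sites are printed with 10 bases on each side and with the nonamer in capitals.
Zfp36 site, bases 589 to 597: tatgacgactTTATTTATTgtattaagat
Zfp36l1 site, bases 1404 to 1412: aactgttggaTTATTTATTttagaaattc
Zfp36l2 site, bases 821 to 829: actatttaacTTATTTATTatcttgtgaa
Among regions of like length (within 10% of the member's own) the nonamer was present in 4.18% for Zfp36, 10.4% for Zfp36l1 and 10.4% for Zfp36l2. The shorter heptamer TATTTAT, which each nonamer contains, occurred 3 times in each of these 3 genes, once in Btg2 and once in Tob2. It is common, being present in 27.8% of all genes with such a region and, among regions of like length, in 43.7% for Btg2 and 46.7% for Tob2. The pentamer ATTTA occurred between 3 and 11 times in all 9 genes and is present in 65.7% of all genes. The Pumilio motif TGTANATA occurred 2 times in Btg1, whose 3′ untranslated region is the longest of the 9 (4166 bases), and 53.8% of regions of like length hold at least 1.

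The libraries held between 16612225 and 19109204 reads counted on genes, and between 24.7% and 33.1% of deposited reads lay on no gene. Levels are given as normalized CPM (reads scaled to a common library total by the TMM method of edgeR), with 95% intervals that cover counting error only. All 9 members were among the 19768 genes that passed the filter on low counts. The summed level of 8 neuronal markers lay between 5257 and 6335 normalized CPM and that of 6 microglial markers between 237 and 269, although single markers varied more, such as Gad1 (256 in the control library, 515 in library 1 at 4 h) and P2ry12 (31.9 and 13.9). The summed level of 6 choroid plexus markers varied most, with 4002 normalized CPM in the control library, 1689 in the 1 h library, 29.3 in library 1 and 4280 in library 2 of 4 h, and 3113 in the 8 h library. Its part in the members' values was not tested. The other marker sums lay between 591 and 927 normalized CPM for 6 hippocampal genes, between 1051 and 1679 for 6 astrocyte genes, between 3303 and 5072 for 6 oligodendrocyte genes, between 181 and 225 for 6 endothelium and pericyte genes and between 100.2 and 199.6 for 8 blood cell genes, and no marker was at 0 in every library. Single hippocampal markers varied more, with C1ql2 at 0.387 of the control at 4 h and 1.98 at 8 h, Prox1 at 2.43 at 4 h and Neurod2 at 1.97 at 8 h. The astrocyte marker Gfap stood at 2.50 of the control at 4 h and 2.66 at 8 h. DESeq2 called 2 hippocampal markers at 4 h, and 1 astrocyte marker at 4 h and at 8 h. In whole tissue, fewer cells of a type and less RNA per cell cannot be told apart.

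One hour after seizure onset all 9 genes stood above the control, led by Btg2 (42.5-fold) and Zfp36 (5.63-fold). Zfp36l2, Btg1, Zfp36 and Btg2 were at least 2-fold higher, 4 of 9 members, where 5.41% of all tested genes were. No member was at least 2-fold lower, against 3.8% of all genes. By 4 h no member was at least 2-fold higher in both libraries (4.96% of all genes were) and none at least 2-fold lower (1.51%). This count rests on library 2, and without it 4 members, Zfp36, Zc3h12a, Btg2 and Btg3, were at least 2-fold higher, as were 11.9% of all genes. Without library 1 the count of members was 0, against 6.59% of all genes. At 8 h the counts of members were again 0 higher (6.79% of all genes) and 0 lower (3.37%). Over the 9 genes the median log2 fold change was 0.91 for 1 h, 0.43 for 4 h and 0.02 for 8 h, where the median over all tested genes was -0.01, 0.01 and 0.01. The 4 h median of the 9 genes was 0.12 without library 1 and 0.63 without library 2.

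**Figure D1:**
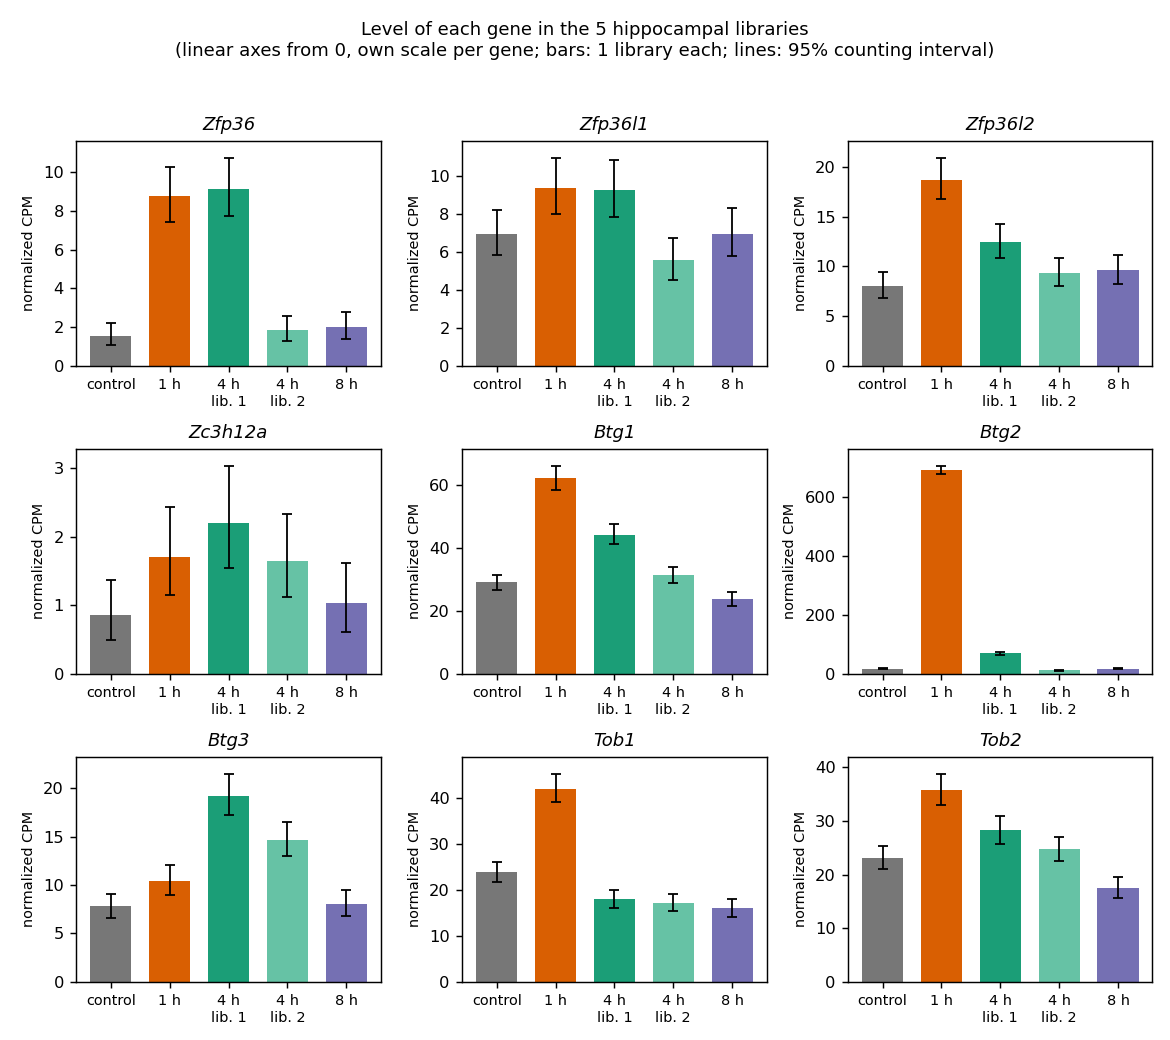
Normalized CPM of each gene (vertical axis, linear from 0, own scale per gene) in the 5 libraries, 1 bar each, with lines for the 95% counting interval. Btg2 stands at 690 normalized CPM at 1 h and at 16.2 in the control, Btg3 is highest at 4 h, and Tob1 lies below the control in all 3 libraries of 4 and 8 h.

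No member passed the test at any time. With the quasi-likelihood test of edgeR and p-values adjusted by Benjamini-Hochberg, the share of all genes called was 0.0% for 1 h against the control, 0.00506% (1 gene) for 4 h and 0.0% for 8 h, with 0 members in each. It was 0.00506% (1 gene) for 4 h against 1 h and 0.0% for 8 h against 4 h, again with 0 members. Limma-voom called no member in these 5 comparisons either, and neither did DESeq2, which gave no adjusted p for Zc3h12a. An unadjusted p under 0.05 was found at 1 h for 4 members, Zfp36l2, Btg1, Btg2 and Tob1, and for 2.42% of all genes. At 4 h it was found for Btg3 alone, against 11.6% of all genes, and at 8 h for no member, against 4.51%. Between 1 and 4 h it was found for the same 4 members as at 1 h (7.94% of all genes), and between 4 and 8 h for Btg3 and Tob2 (8.73%). With 1 residual degree of freedom, the spread comes from the 4 h pair alone and is assumed for the single libraries.

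**Figure D2:**
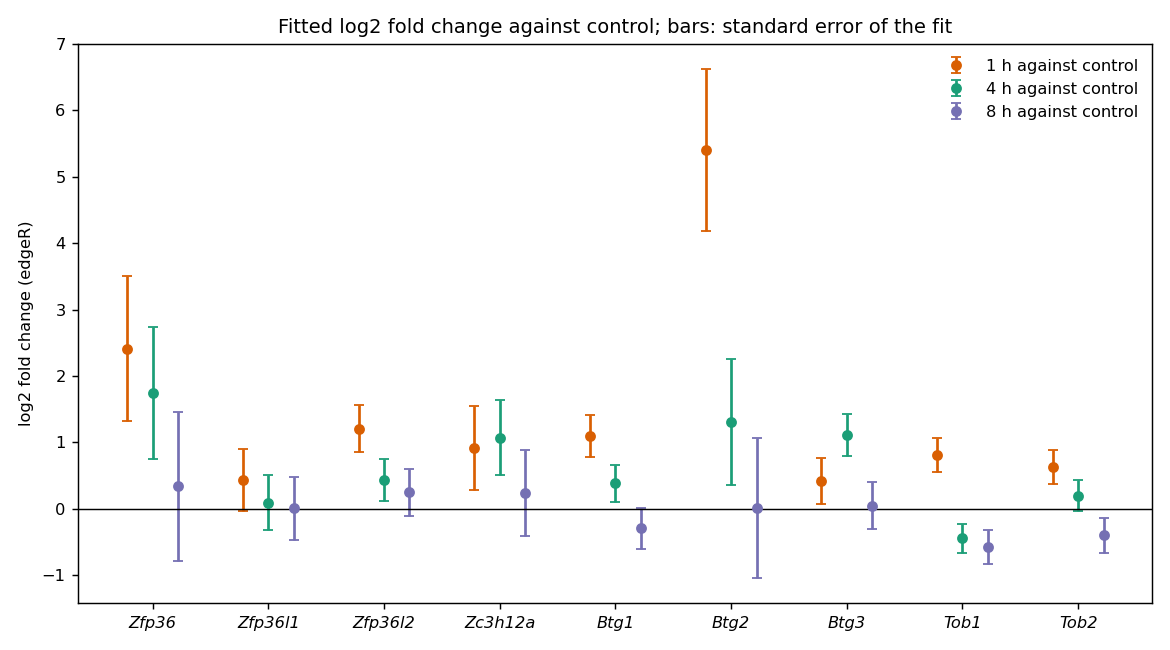
Fitted log2 fold change against the control (vertical axis, edgeR) of the 9 genes at 1, 4 and 8 h, with bars for the standard error of the fit. Btg2 at 1 h lies highest at 5.40 with a standard error of 1.22, and no member had an adjusted p under 0.05.

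Among the AU-rich element binding proteins, Zfp36 (ENSMUSG00000044786.6) gave the strongest contrast between libraries. The gene lies at chr7:28376784-28380253 of GRCm38 on the minus strand. The control library held 31 of its reads, the 1 h library 154, the 4 h pair 154 (library 1) and 35 (library 2), and the 8 h library 35. As normalized CPM, in this order of libraries, its levels were 1.56, 8.76, 9.15, 1.85 and 1.997. The 1 h library and library 1 at 4 h were thus high, and library 2 at 4 h and the 8 h library lay near the control. Relative to the control, Zfp36 stood at 5.63 in the 1 h library (95% counting interval 3.81 to 8.56), at 5.87 in library 1 (3.97 to 8.94) and at 1.19 in library 2 of 4 h (0.712 to 1.99), and at 1.28 in the 8 h library (0.768 to 2.15). The fitted log2 fold change of Zfp36 was 2.41 ± 1.10 (SE) for 1 h, with an adjusted p of 1 by edgeR's quasi-likelihood test, and 1.74 ± 0.996 for 4 h, with an adjusted p of 0.535. With no filter on low counts the adjusted p of Zfp36 was 0.00109 for 1 h and 0.0114 for 4 h, and with an assumed coefficient of variation of 0.2 it was 0.000116 and 0.00386, and 0.0418 between 4 and 8 h.

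Zfp36l2 (ENSMUSG00000045817.8, chr17:84183931-84187947, minus strand), a relative of tristetraprolin known from the self-renewal of blood progenitors, had 160 reads in the control library, 329 in the 1 h library, 210 and 176 in libraries 1 and 2 of 4 h and 168 in the 8 h library. Its levels were 8.04, 18.7, 12.5, 9.31 and 9.58 normalized CPM in the same order. The 1 h level lay above the counting interval of every other library, and the 8 h level lay within that of library 2 at 4 h. Ratios to the control were 2.33 (1.92 to 2.83) for the 1 h library, 1.55 (1.26 to 1.92) and 1.16 (0.929 to 1.44) for the 4 h pair and 1.19 (0.954 to 1.49) for the 8 h library. The fit for 1 h gave a log2 fold change of 1.21 ± 0.35 (adjusted p = 1, edgeR).

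Zfp36l1 (ENSMUSG00000021127.7, chr12:80107754-80113013, minus strand) spanned the smallest range of the 9 genes, 1.69-fold from its lowest to its highest library. Its level was 6.93 normalized CPM in the control library, 9.39 in the 1 h library, 9.26 in library 1 and 5.55 in library 2 of 4 h, and 6.96 in the 8 h library, from 138, 165, 156, 105 and 122 reads. The 2 libraries at 4 h lay on opposite sides of the control, and the 8 h level equalled it within counting error (ratio 1.00, 0.780 to 1.29). The fit for 4 h gave a log2 fold change of 0.09 ± 0.41 (adjusted p = 0.948, edgeR), which was -0.041 when scaled by library size alone. Of its exon length, 55.9% lies under exons of Gm26669 on the other strand. Gm26669 had no entry under its GENCODE M21 identifier in the deposited counts, so overlap with it under that identifier could not make reads ambiguous. Because the strand setting of the counting is not known here, reads of this partner may be included.

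Zc3h12a (ENSMUSG00000042677.7, chr4:125118423-125127840, minus strand), the endoribonuclease of the set, had the fewest reads, 17 in the control library, 30 in the 1 h library, 37 and 31 in the 4 h pair and 18 in the 8 h library. Its levels were 0.854, 1.71, 2.20, 1.64 and 1.03 normalized CPM. The 1 h and both 4 h libraries lay above the control, whereas the 8 h level lay within the counting interval of the control (0.498 to 1.37). Ratios to the control were 1.998 (1.07 to 3.86) for the 1 h library, 2.57 (1.41 to 4.87) and 1.92 (1.03 to 3.70) for the 4 h pair, and 1.20 (0.585 to 2.48) for the 8 h library. For 4 h the log2 fold change was 1.07 ± 0.56 (adjusted p = 0.490, edgeR). With the fewest reads of the 9 genes, Zc3h12a also had the widest counting intervals relative to its levels.

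Btg2 (ENSMUSG00000020423.6, chr1:134075170-134079120, minus strand), an antiproliferative gene also known as a target of p53, had by far the largest range, 56.5-fold. The control library held 323 of its reads, the 1 h library 12133, the 4 h pair 1156 (library 1) and 231 (library 2), and the 8 h library 288. Its level was 16.2 normalized CPM in the control library, 690 in the 1 h library, 68.7 and 12.2 in the 4 h pair and 16.4 in the 8 h library. The 1 h library stood above all others, library 1 at 4 h was intermediate, and library 2 lay below the control. Relative to the control, Btg2 stood at 42.5 in the 1 h library (38.1 to 47.7), at 4.23 in library 1 (3.74 to 4.80) and 0.753 in library 2 of 4 h (0.633 to 0.894), and at 1.01 in the 8 h library (0.861 to 1.19). Compared with 1 h, the 4 h levels were 0.0995 of it in library 1 (0.0936 to 0.106) and 0.0177 of it in library 2 (0.0155 to 0.0202). In the fit, Btg2 had a log2 fold change of 5.40 ± 1.22 for 1 h (adjusted p = 1, edgeR) and of -4.09 ± 0.87 between 1 and 4 h (adjusted p = 0.469). For 4 h against the control it was 1.31 ± 0.95 (adjusted p = 0.624, edgeR), which became -0.40 without library 1 and 2.08 without library 2. Btg2 passed the threshold at 1 h, and between 1 and 4 h, under 4 alternatives, which were scaling by library size alone, no filter on low counts and an assumed coefficient of variation of 0.2 or 0.4. Over all alternatives the adjusted p ranged from 3.54e-82 to 1 for 1 h and from 3.80e-93 to 0.672 between 1 and 4 h. For 4 h against the control, and between 4 and 8 h, Btg2 passed it with no filter and with a coefficient of 0.2.

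Btg1 (ENSMUSG00000036478.8, chr10:96617006-96622809, plus strand), the closest relative of Btg2, was also highest at 1 h, over a narrower range. It had 577 reads in the control library, 1090 in the 1 h library, 744 and 593 in the 4 h pair and 414 in the 8 h library, and the levels were 29.0, 62.0, 44.2, 31.4 and 23.6 normalized CPM. The 1 h level was the highest, both 4 h levels lay between it and the control, and the 8 h level was the lowest. Ratios to the control were 2.14 (1.93 to 2.37) for the 1 h library, 1.52 (1.37 to 1.70) and 1.08 (0.963 to 1.22) for the 4 h pair, and 0.815 (0.716 to 0.926) for the 8 h library. The fit gave a log2 fold change of 1.09 ± 0.31 for 1 h (adjusted p = 1, edgeR) and -0.71 ± 0.26 between 1 and 4 h (adjusted p = 0.596). With no filter on low counts the adjusted p of Btg1 for 1 h was 0.0196. The processed pseudogene Gm14519 shares a stretch of 312 bases with Btg1 at 98.7% identity and had 4 to 7 reads, and reads that fit both equally could have been left uncounted.

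Btg3 (ENSMUSG00000022863.15, chr16:78332637-78377192, minus strand), also known as ANA, differed from the other BTG genes in that 4 h and not 1 h held its highest levels. It had 155 reads in the control library, 183 in the 1 h library, 324 and 277 in the 4 h pair and 141 in the 8 h library, and the levels were 7.79, 10.4, 19.2, 14.6 and 8.04 normalized CPM. Both 4 h libraries stood above the control, 1 h and 8 h libraries without overlap of their counting intervals. Ratios to the control were 1.34 (1.07 to 1.67) for the 1 h library, 2.47 (2.03 to 3.01) and 1.88 (1.54 to 2.30) for the 4 h pair, and 1.03 (0.816 to 1.31) for the 8 h library. The mean at 4 h was 16.9 ± 3.25 normalized CPM (SD, n = 2). For 4 h against the control the log2 fold change was 1.11 ± 0.31 (unadjusted p = 0.0138, adjusted p = 0.347, edgeR), and that between 4 and 8 h was -1.06 ± 0.31 (adjusted p = 0.488, edgeR). The adjusted p of Btg3 for 4 h was 0.0436 with no filter on low counts. The processed pseudogene Gm7334 is identical to Btg3 over 756 bases and had 1, 4, 11, 16 and 6 reads in the same order of libraries, so that reads that fit both could also have been left uncounted here. Of the exon length of Btg3, 17.3% lies under exons of Cxadr on the other strand.

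Tob1 (ENSMUSG00000037573.5, chr11:94211454-94215495, plus strand), which links the deadenylase to the poly(A)-binding protein, was above the control at 1 h and below it afterwards. It had 476 reads in the control library, 739 in the 1 h library, 302 and 325 in the 4 h pair and 280 in the 8 h library, and the levels were 23.9, 42.0, 17.9, 17.2 and 16.0 normalized CPM. The 3 libraries of 4 and 8 h were close together and their counting intervals lay below that of the control. Tob1 stood at 1.76 of the control in the 1 h library (1.56 to 1.98), at 0.750 (0.647 to 0.868) and 0.719 (0.622 to 0.829) in the 4 h pair and at 0.668 in the 8 h library (0.574 to 0.776). The mean at 4 h was 17.6 ± 0.529 normalized CPM (SD, n = 2), the smallest spread relative to its mean among the 9 genes. Between 1 and 4 h the log2 fold change was -1.25 ± 0.21 (unadjusted p = 0.00154, adjusted p = 0.390, edgeR), and against the control it was -0.44 ± 0.22 for 4 h (adjusted p = 0.499) and -0.58 ± 0.26 for 8 h (adjusted p = 1.00). Between 1 and 4 h the adjusted p of Tob1 was 0.000332 with no filter on low counts and 0.0183 with an assumed coefficient of variation of 0.2.

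Tob2 (ENSMUSG00000048546.8, chr15:81848272-81858796, minus strand), its close relative, varied 2.04-fold over the libraries. Its level was 23.1 normalized CPM in the control library, 35.8 in the 1 h library, 28.3 and 24.7 in the 4 h pair and 17.5 in the 8 h library, from 460, 629, 476, 468 and 307 reads. The 1 h library was again the highest and the 8 h library the lowest, and library 2 at 4 h overlapped the control. Tob2 stood at 1.55 of the control in the 1 h library (1.37 to 1.75), at 1.22 (1.07 to 1.39) and 1.07 (0.940 to 1.22) in the 4 h pair and at 0.758 in the 8 h library (0.654 to 0.877). Its log2 fold change was 0.63 ± 0.26 for 1 h (adjusted p = 1, edgeR) and -0.59 ± 0.23 between 4 and 8 h (adjusted p = 0.570).

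The 2 libraries at 4 h differed most for Btg2 and Zfp36, the members with the highest ratios to the control at 1 h. Library 1 was above library 2 for all 9 genes, by 5.62-fold for Btg2 (95% counting interval 4.88 to 6.50) and 4.94-fold for Zfp36 (3.41 to 7.35). These were the 2 members at least 2-fold higher in library 1, where 7.23% of all tested genes were, and no member was at least 2-fold higher in library 2, where 4.84% of all genes were. The other 7 ratios ran from 1.67 for Zfp36l1 (1.29 to 2.16) to 1.04 for Tob1 (0.889 to 1.22), and the intervals of Tob1 and Zc3h12a included 1. Of the 1070 genes that were at least 2-fold higher at 1 h than in the control, 406 (37.9%) were also at least 2-fold higher in library 1 than in library 2. The choroid plexus markers given above moved in the other direction between these libraries. The means at 4 h were accordingly wide for Btg2, at 40.4 ± 39.9 normalized CPM (SD, n = 2), and for Zfp36, at 5.50 ± 5.16.

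**Figure D3:**
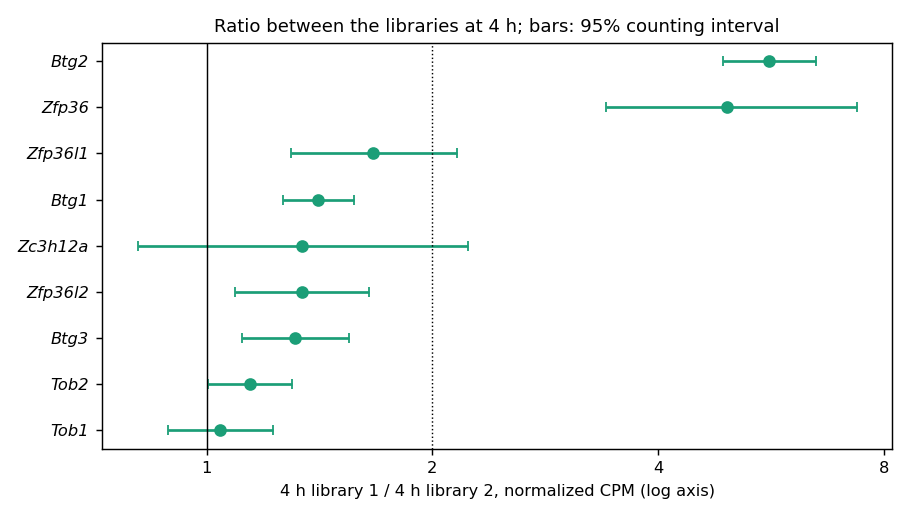
Ratio of library 1 to library 2 at 4 h in normalized CPM (horizontal log axis) for the 9 genes, with bars for the 95% counting interval, a solid line at 1 and a dotted line at 2. Btg2 (5.62) and Zfp36 (4.94) lie above 2, and Tob1 (1.04) lies near 1.

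To compare levels between genes, normalized CPM was divided by the exon length in kilobases, taken over all annotated transcripts of a gene. For Zfp36 these exons form 1 block of 3470 bases, the whole span of the gene. A longer length lowers the level per kb, so the rank and percentile of Zfp36 depend on this choice. In the control, Tob1 was the most abundant member with 10.5 normalized CPM per kb, followed by Btg2 (5.92), Btg1 (5.49), Tob2 (3.47), Zfp36l1 (2.32), Zfp36l2 (2.28), Btg3 (1.94), Zfp36 (0.449) and Zc3h12a (0.296). The counting intervals of Btg2 and Btg1 overlapped, as did those of Zfp36l1 and Zfp36l2, of Zfp36l2 and Btg3, and of Zfp36 and Zc3h12a. At 1 h Btg2 came first with 252 normalized CPM per kb, at the 99.7th percentile of 19749 genes, compared with the 65.0th percentile in the control. Tob1 (18.4) and Btg1 (11.8) followed. In library 1 at 4 h Btg2 still led with 25.0, whereas in library 2 it had 4.45 and stood behind Tob1 (7.51) and Btg1 (5.94). At 8 h Tob1 (6.98) and Btg2 (5.99) led with overlapping intervals. Zfp36 was at the 16.8th percentile in the control, the 46.0th at 1 h, the 46.8th in library 1 at 4 h and the 18.6th in library 2. Zc3h12a was the lowest member in every library but library 2 at 4 h, where its interval overlapped that of Zfp36.

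**Figure D4:**
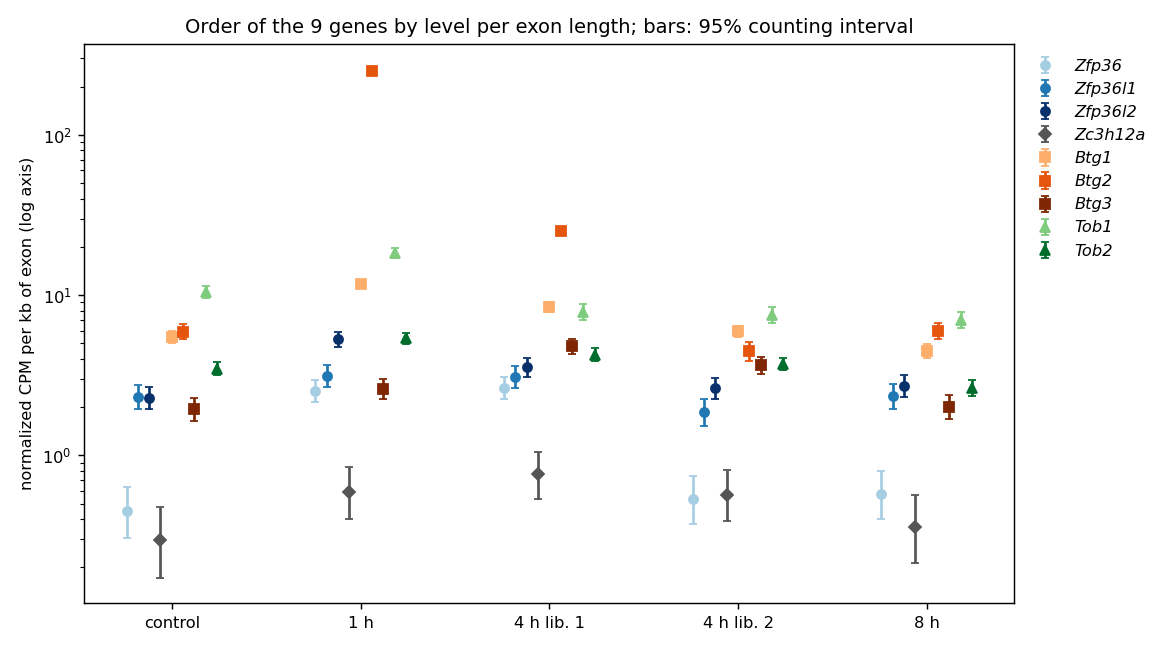
Normalized CPM per kb of exon (vertical log axis) of the 9 genes in the 5 libraries, with bars for the 95% counting interval. Tob1 leads in the control, Btg2 at 1 h and in library 1 at 4 h, and Zc3h12a or Zfp36 is lowest in each library. The exon length used for Zfp36 is the whole span of its gene, which lowers its level per kb.

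For each member that varied at least 2-fold, the 3 genes with the most similar course over the 5 libraries were found by the root mean square difference of centred log2(normalized CPM + 0.5). This is a description over 5 libraries without a test. Those nearest to Btg2 were Gm47088 (difference 0.22), Gm47075 (0.40) and Nr4a1 (0.61), an immediate early nuclear receptor, which had 33.8, 605, 163, 34.6 and 21.5 normalized CPM. For Zfp36 they were Gm37407 (0.13), Spty2d1 (0.19) and Dnajb1 (0.19), a heat shock co-chaperone with 48.6, 179, 213, 41.2 and 41.6 normalized CPM. Dnajb1 thus shared with Zfp36 the high library 1 and the low library 2 at 4 h.

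The genes nearest to Btg3 were Ntrk2 (0.03), the receptor of BDNF, and the sterol synthesis enzymes Hmgcs1 (0.04) and Sc5d (0.06). Ntrk2 had 566 normalized CPM in the control library, 738 in the 1 h library, 1301 and 976 in the 4 h pair and 571 in the 8 h library, the same order of libraries as Btg3. Those nearest to Tob1 were H3c6, Cbx8 and Cnnm4 (0.14 to 0.16), and those nearest to Tob2 were Tent5a, Rapgef6 and Col11a2 (0.08 to 0.11). Irf2bp2, a transcriptional corepressor, was among the 3 nearest for both Zfp36l2 (0.12) and Btg1 (0.11). The others were Ctnnd1 and Zfp869 for Zfp36l2, Taf7 and Ccnk for Btg1, and Prpf38b, Usp16 and Sde2 for Zc3h12a.

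In 6 lists of decay factors and of other proteins that bind 3′ untranslated regions, no gene was past 2-fold in every library of a time point. Of all tested genes, 5.41%, 4.96% and 6.79% were at least 2-fold higher at 1, 4 and 8 h, and 3.8%, 1.51% and 3.37% lower. Of 12 tested subunits of CCR4-NOT, 0 were at least 2-fold higher or lower at any time, near these shares for a list of that length. The median log2 fold change of these subunits was -0.06, 0.15 and 0.06 for 1, 4 and 8 h. The subunit furthest above the control was Cnot6l, a catalytic subunit, with 47.6 normalized CPM in the control library, 54.9 in the 1 h library, 75.8 and 67.5 in the 4 h pair and 59.9 in the 8 h library. The one furthest below it at 1 h was Cnot3, with 14.9 normalized CPM against 22.1 in the control. Counts past 2-fold were likewise 0 at each time for 9 tested genes of PAN2-PAN3, PARN and poly(A)-binding proteins, 15 of decapping and 5′ to 3′ decay, 14 of the exosome and SKI complex, 8 of nonsense-mediated decay and 17 other proteins that bind AU-rich elements or 3′ untranslated regions. Adjusted p values under 0.05 were found for 0 genes of these 6 lists by edgeR, DESeq2 (which gave none for Pabpc5 at 1 h) and limma-voom. Unadjusted p values under 0.05 (edgeR) were found at 4 h for 12 of their 75 genes (16.0%), against 11.6% over all genes. These were 5 of the 17 other binding proteins, 3 of the 9 genes of PAN2-PAN3, PARN and poly(A)-binding proteins, and 1 in each other list. At 1 h and 8 h they were found for 1 gene each (2.42% and 4.51% of all genes). Pabpc4 had 28.6 normalized CPM in the control library and 68.6 and 52.7 in the 4 h pair. Pabpc5 had 4.62 in the control and 1.54 and 2.43 in the 4 h pair, so that both were past 2-fold in library 1 alone.

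Of the 7 relatives outside the 9 genes, 4 passed the filter and 0 of them were past 2-fold in every library of a time. With 4 genes this is near the shares of all genes (5.41%, 4.96% and 6.79% higher and 3.8%, 1.51% and 3.37% lower at 1, 4 and 8 h). By edgeR 0 of the 4 had an adjusted p under 0.05, and 1 lay under 0.05 unadjusted at 4 h (11.6% of all genes). Zc3h12c, a relative of Regnase-1, had 28.6 normalized CPM in the control library, 49.5 in the 1 h library, 97.8 in library 1 and 42.7 in library 2 of 4 h and 26.3 in the 8 h library, and was thus also higher in library 1 than in library 2. Rc3h1 (roquin-1), which binds stem-loops shared with Regnase-1, had between 84.9 and 110 normalized CPM in all libraries.

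**Figure D5:**
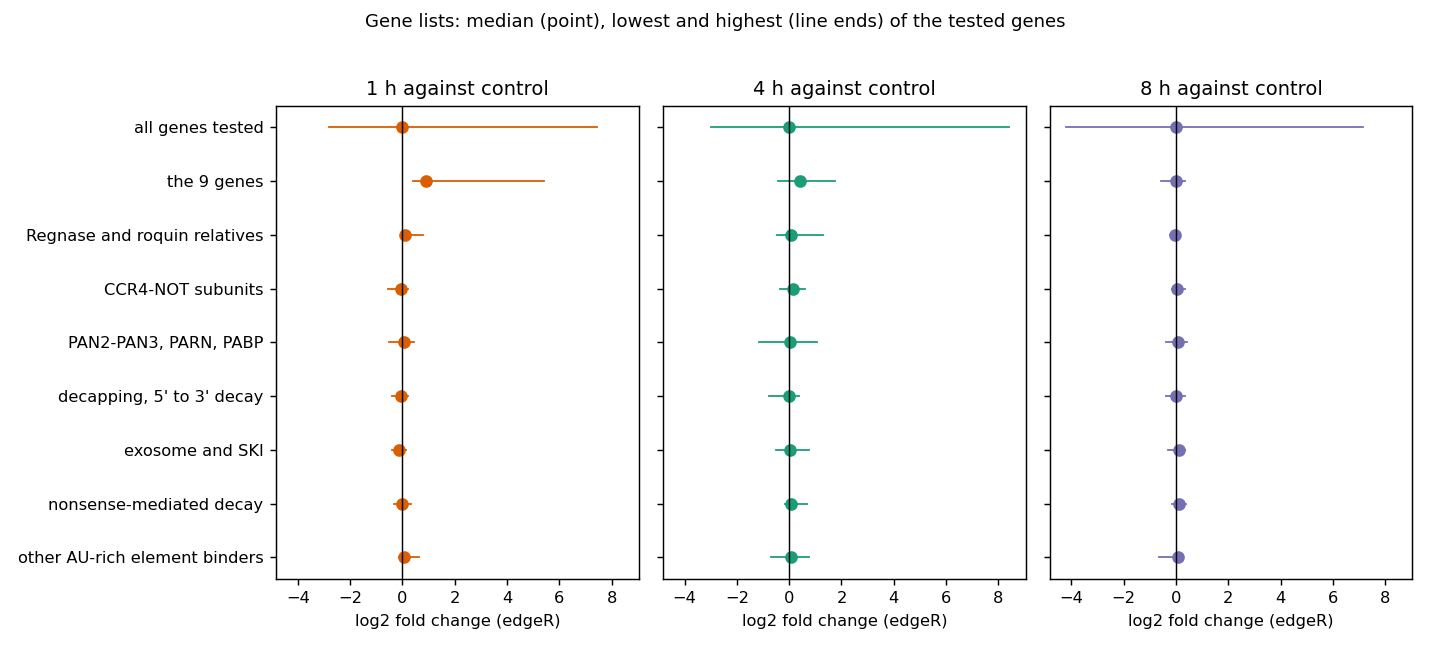
Log2 fold change against the control (horizontal axis, edgeR) at 1, 4 and 8 h for all tested genes, the 9 genes and 7 lists of their relatives and of decay factors, as the median (point) and the lowest and highest gene (line ends). The 9 genes have a median of 0.91 at 1 h and reach 5.40, whereas that of CCR4-NOT is -0.06.

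Of 20 mRNAs that tristetraprolin or Regnase-1 is known to bind or shorten, 9 had at least 10 reads in the control library. The other 11 are not counted here. Csf2, Il6, Il10, Il12b and Cxcl2 had at most 5 reads in any library, whereas Tnf, Cxcl1, Ccl2 and Ccl3 (0 control reads each), Il1b (2) and Lcn2 (6) passed the filter on low counts only through kainic acid libraries. Of the 9, 7 were at least 2-fold higher than the control at 1 h (2.8% of all genes with as many control reads), 5 at 4 h in both libraries (2.76%) and 2 at 8 h (3.22%). At least 2-fold lower were 0 of the 9, against 605, 289 and 595 of 18127 such genes. None of the 9 had an adjusted p under 0.05 by edgeR's quasi-likelihood test. At 1, 4 and 8 h, 4, 6 and 1 lay under 0.05 without adjustment (403, 2127 and 792 of the 18127 genes). DESeq2 called 0, 3 and 0 (55, 226 and 29 of the 18127 genes) and limma-voom 0 at each time. The list holds many genes known to respond to neuronal activity and was assembled with results of these data known, so that its direction is a description. Fos had 10.8 normalized CPM in the control library, 999 in the 1 h library, 519 in library 1 and 70.4 in library 2 of 4 h, and 17.2 in the 8 h library. Ptgs2 (cyclooxygenase-2) had 23.2, 443, 672, 244 and 58.6 in the same order, and the kinase gene Pim1 1.36, 14.7, 52.8, 15.8 and 4.51. All 3 were higher in library 1 than in library 2 at 4 h, as Zfp36 and Btg2 were. Lcn2 (lipocalin-2) had 0.301, 0.114, 4.93, 5.34 and 5.76 normalized CPM, from 6, 2, 83, 101 and 101 reads, and did not share that difference between the pair.

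Among kinases and phosphatases known to act on tristetraprolin, Dusp1, a phosphatase that switches off p38 signalling and is itself listed among the target mRNAs, had 8.09 normalized CPM in the control library, 87.9 in the 1 h library, 38.4 and 8.36 in the 4 h pair and 5.48 in the 8 h library. It was the only 1 of 8 tested genes at least 2-fold higher at 1 h (5.41% of all genes). By edgeR 0 of the 8 had an adjusted p under 0.05 at any time, with 1, 5 and 1 of them under 0.05 unadjusted at 1, 4 and 8 h (2.42%, 11.6% and 4.51% of all genes), while DESeq2 called Mapkapk2 at 4 h and limma-voom 0. At 4 h 2 of 8 were at least 2-fold higher in both libraries (4.96% of all genes), Mapkapk2, which phosphorylates tristetraprolin, and its relative Mapkapk3. Mapkapk2 had 32.2 normalized CPM in the control library, 34.9 in the 1 h library, 119 and 76.3 in the 4 h pair and 49.2 in the 8 h library. In the other direction, the mean at 4 h stood at 0.656 of the control for Mapk14 and at 0.649 for Mapk3. At 8 h Mapk3 stood at 0.568 of the control, and neither gene was past 2-fold.

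Of 14 partners of the BTG and TOB proteins and genes of the G1 phase, 1 was at least 2-fold higher at each time, near the shares of all genes (5.41%, 4.96% and 6.79%), and 0 were lower (3.8%, 1.51% and 3.37%). This was Cdkn1a, the cyclin-dependent kinase inhibitor p21, which had 2.71 normalized CPM in the control library, 14.6 in the 1 h library, 51.9 and 26.4 in the 4 h pair and 9.07 in the 8 h library. By edgeR 0 of the 14 had an adjusted p under 0.05, with 1, 1 and 2 under 0.05 unadjusted (2.42%, 11.6% and 4.51% of all genes), while DESeq2 called Cdkn1a at 1 h and at 4 h and limma-voom called 0. The partners Cnot8 and Smad1 stayed within 2-fold of the control, with 42.8 against 49.0 normalized CPM at 1 h for Cnot8 and 40.7 against 24.2 for Smad1. Of 15 proliferation markers, 10 had at least 10 control reads. Of these 10 markers, 0 were at least 2-fold higher at any time (2.8%, 2.76% and 3.22% of all genes with as many control reads at 1, 4 and 8 h). At 4 h 1 marker was at least 2-fold lower in both libraries, as were 289 of the 18127 genes with as many control reads. Cdk1, Birc5, Ccnb2, Bub1 and Aurkb had 3 to 9 control reads and are not counted. The one lower at 4 h was Mcm6, a subunit of the replicative helicase, with 17.3 normalized CPM in the control library, 14.3 in the 1 h library, 6.65 and 7.62 in the 4 h pair and 15.9 in the 8 h library. Mki67 had 2.41 normalized CPM in the control library and 2.62 in the 1 h library. It had 3.98 and 4.28 in the 4 h pair and 2.68 in the 8 h library. The 13 tested markers include some with fewer than 10 control reads. Of these 13, 8 were higher than the control in both 4 h libraries and 4 were lower in both. At 1 h 6 were higher and 7 lower, and at 8 h 10 were higher and 3 lower. Their median log2 fold change was -0.22, 0.53 and 0.64 for 1, 4 and 8 h.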

How the data were processed

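The authors made stranded libraries from hippocampal total RNA (5 libraries) and sequenced paired reads. According to the submitters' processing notes, STAR 2.5.1b aligned the reads to GRCm38.p4 and HTSeq counted them. The deposited values are whole-number counts for 55385 genes without normalization. The sources used here do not give the annotation release or the strand setting. Gene positions and exon lengths come from GENCODE M21, which holds 55144 of the gene identifiers.

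The analysis used edgeR 4.0.16 under R 4.3.3. After filterByExpr (19768 genes kept) and TMM scaling, a quasi-likelihood model with 4 conditions was fitted, and p-values were adjusted by Benjamini-Hochberg over all genes tested (threshold 0.05). Fold changes carry a prior count of 2, and each standard error is the unshrunk log2 fold change divided by the root of its F value. There was 1 residual degree of freedom, 4.42 prior degrees of freedom and a biological coefficient of variation of 0.238. Library depths were 16612225 to 19109204 gene reads. Intervals of 95% are exact Poisson for levels and exact binomial for ratios. Lines of the counter for no feature (24.7% to 33.1%), ambiguous (1.26% to 1.52%) and multiply aligned reads (9.67% to 11.6%) were kept out of library sizes.

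All 9 members are named. From each other list, genes with the 2 highest or the 2 lowest ratios to the control at a time point were eligible, given at least 50 counts in a library. Listed genes with fewer counts are named only to account for them, after their values were seen, and counts for 2 lists with such genes use those with at least 10 control reads, a limit also set then. Similar profiles were searched among genes with a mean of at least 5 normalized CPM. The members and lists were chosen with earlier results of these data known. The alternatives comprised DESeq2 1.42.0, limma-voom (limma 3.58.1), robust empirical Bayes, assumed coefficients of variation (0.2 and 0.4), other scaling (median-of-ratios factors, library size), 2 other filters, a prior count of 0.125 and leaving out either 4 h library. Fits were tested on simulated data. Promoters are from RefSeq (GRCm38.p6), and 3′ untranslated regions are those of 1 GENCODE transcript per gene. Near copies were sought at 97% identity over at least 100 bases. Figures were drawn with matplotlib 3.10.9.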

Additional observations from a re-analysis of the deposited data

Results flagged for a closer look

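Tob1, Btg1 and Tob2 lay on opposite sides of the control at different times. Tob1 was 1.76 of the control at 1 h, 0.750 and 0.719 in libraries 1 and 2 at 4 h and 0.668 at 8 h. The difference between its 1 h and 4 h values is the log2 fold change between these times, -1.25 (adjusted p = 0.390, edgeR), and that between 1 h and 8 h was not tested. For 1 h and 8 h, Btg1 stood at 2.14 and 0.815 of the control and Tob2 at 1.55 and 0.758. The difference between 1 h and 8 h was not tested for these genes either. The 1 h and 8 h values each rest on a single library.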

How the results depend on the processing

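No paired analysis was possible because only the 4 h condition has numbered libraries. Of the 504 log2 fold changes of members recomputed under the alternatives, 445 have an adjusted p, of which 420 kept their direction and their side of the threshold, 21 passed the threshold and 4 changed sign. Leaving out a 4 h library gave 54 values without a test, of which 46 kept their direction and 8 changed sign. DESeq2 gave Zc3h12a 5 values in the same direction with no adjusted p. The cause of these differences was not tested. Btg2 passed the threshold at 1 h under 4 alternatives, with an adjusted p of 0.0169 for library size alone, 3.54e-82 for no filter on low counts, and 2.59e-24 and 9.40e-05 for assumed coefficients of variation of 0.2 and 0.4. Over the fit and its alternatives this p ranged from 3.54e-82 to 1, and it was 0.441 with DESeq2. The 21 values that passed were 12 of Btg2, 5 of Zfp36, 2 of Tob1, 1 of Btg1 and 1 of Btg3, all with no filter, library size alone or an assumed coefficient. Median-of-ratios factors, at least 10 counts in every library, DESeq2, limma-voom, robust empirical Bayes and a smaller prior count changed no call of a member for which they gave an adjusted p. The depth limits Zc3h12a most, with 17 to 37 reads.

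Library size alone moved the median log2 fold change of all genes at 4 h to -0.11. With it, the log2 fold change of Zfp36l1 turned to -0.041 at 4 h, and those between 4 and 8 h turned to 0.065 for Zfp36l1 and 0.0068 for Tob1. With no filter, Zfp36l1 turned to -0.0085 at 8 h. With either 4 h library left out there is no test, and the log2 fold change at 4 h ranged from -0.40 to 2.08 for Btg2 and from -0.31 to 0.42 for Zfp36l1. Between 1 and 4 h it ranged from -2.18 to 0.065 for Zfp36 and from -0.053 to 0.35 for Zc3h12a. Between 4 and 8 h it ranged from -2.06 to 0.42 for Btg2, from -2.14 to 0.10 for Zfp36, from -0.41 to 0.32 for Zfp36l1 and from -0.38 to 0.041 for Zfp36l2. The members at least 2-fold higher at 4 h numbered 0 to 4, and the genes 1303 to 2360, and 738 to 1349 genes were lower.

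Counts of all genes called moved more. For 1 h they were 57 with library size alone, 285 with no filter, 1 with at least 10 counts, 56 with DESeq2, 238 and 40 with assumed coefficients of variation of 0.2 and 0.4, and 1 with robust empirical Bayes. For 4 h they were 0 with median-of-ratios factors, 237 with library size alone, 1300 with no filter, 0 with at least 10 counts, 238 with DESeq2, 0 with limma-voom, and 916 and 81 with the assumed coefficients. For 8 h they were 22 with library size alone, 279 with no filter, 33 with DESeq2, and 184 and 12 with the assumed coefficients. Between 1 and 4 h they were 0 with median-of-ratios factors, 67 with library size alone, 725 with no filter, 0 with at least 10 counts, 109 with DESeq2, 0 with limma-voom, and 513 and 33 with the assumed coefficients. Between 4 and 8 h they were 120 with library size alone, 957 with no filter, 129 with DESeq2, and 660 and 48 with the assumed coefficients. Genes at least 2-fold higher and lower numbered 4118 and 3981 at 1 h, 2563 and 2045 at 4 h, and 5043 and 3515 at 8 h with no filter, and 470 and 173, 483 and 136, and 559 and 247 with at least 10 counts. With library size alone 457 genes were at least 2-fold lower at 4 h.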
